A study of Mus musculus with 7 samples.

Results

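The acute phase response is the change that the liver makes in its secreted proteins when tissue is injured or infected. In hepatocytes, IL-6 binds *Il6ra* and the shared receptor chain *Il6st* (gp130), which signals through JAK kinases to the transcription factor STAT3, and SOCS proteins then dampen the signal. IL-1, TNF and bacterial products act through *Myd88* and other adaptors on NF-kB, which IkB proteins such as *Nfkbia* hold back. Together with C/EBP factors these pathways raise the positive acute phase proteins, among them the serum amyloids, haptoglobin and the acid glycoproteins. A list of 41 genes of this response was examined in primary mouse hepatocytes transfected with miR-709. Its members were chosen by name, as secreted acute phase proteins, receptors and adaptors, STAT3 with its SOCS feedback genes, NF-kB subunits and inhibitors, inducible targets, and cytokines and chemokines. For each gene the brightest probe set with that gene symbol alone was taken. In all, 39 of the 41 genes were measured, among the 19938 genes tested. *Il1r1*, the signalling receptor of IL-1, and *Nfkb1*, the p50 subunit of NF-kB, were not analysed here.

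The study asked which transcripts miR-709 represses in liver cells. One group of cells received 1 µg of miR-709 mimic (4 arrays, replicates A to D) and the other 1 µg of a control miRNA from a worm, Cel-239b (3 arrays, replicates B to D). Total RNA was isolated 24 h after transfection and hybridised to Affymetrix Mouse Gene 1.0 ST arrays, with 1 array per replicate. Both groups were hepatocytes of male C57BL/6J mice, separated from non-parenchymal cells on a Percoll gradient, with no purity given, and plated in serum-containing medium. That medium held insulin and dexamethasone, a glucocorticoid, in both groups. The methods name no inflammatory cytokine in the medium. Whether separate mice or isolations stand behind the replicates is not stated in the labels or methods, so a p-value reflects the spread of these arrays alone.

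The deposited values are log2 signals after RMA, and a log2 fold change below is the mean of the miR-709 arrays minus the mean of the Cel-239b arrays. They ran from 1.92 to 14.08, with array medians of 5.04 to 5.07. Genes are called higher or lower where limma gave an adjusted p under 0.05, with Benjamini-Hochberg adjustment over all genes. Precision is limited by the number of arrays, with a median standard error of 0.08 over all genes for a log2 fold change. *Alb*, the defining product of hepatocytes, had a mean log2 signal of 13.5. Of 18 Kupffer cell and leukocyte markers, 16 had a mean log2 signal under 5, including *Adgre1*, *Clec4f*, *Ptprc* and *Csf1r*. The exceptions were *Cd68* (mean 10.67) and *Cd3e* (mean 5.21). None of the 18 was called by limma or the methods' t-test or reached an unadjusted p under 0.05 in limma. In such bulk RNA, fewer cells of a type and less RNA per cell cannot be told apart.

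Promoter sequences are shown for 3 of the members that changed, since STAT3, NF-kB and C/EBP factors act on genes at such sites. These 3 are the changed members whose windows held a motif match. They are RefSeq windows of GRCm38.p6, from 250 bases before the start of the gene to 50 bases after it, read 5′ to 3′ on the strand of the gene. *Steap4* encodes a metalloreductase that cytokines induce in fat and liver, *Apcs* encodes serum amyloid P, and *Il1rn* encodes the IL-1 receptor antagonist. Capitals mark matches to the motifs searched on both strands, which were TTCNNNGAA for STAT factors, GGNNTTTCC for NF-kB and TTNNGCAA for C/EBP factors.
Steap4, chr5:7960222-7960521, plus strand: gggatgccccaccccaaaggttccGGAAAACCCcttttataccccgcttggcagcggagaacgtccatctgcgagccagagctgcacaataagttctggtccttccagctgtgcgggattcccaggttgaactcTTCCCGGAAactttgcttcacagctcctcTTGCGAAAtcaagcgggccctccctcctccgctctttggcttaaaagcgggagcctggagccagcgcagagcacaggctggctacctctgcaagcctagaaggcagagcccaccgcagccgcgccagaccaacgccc
Apcs, chr1:172895005-172895304, minus strand: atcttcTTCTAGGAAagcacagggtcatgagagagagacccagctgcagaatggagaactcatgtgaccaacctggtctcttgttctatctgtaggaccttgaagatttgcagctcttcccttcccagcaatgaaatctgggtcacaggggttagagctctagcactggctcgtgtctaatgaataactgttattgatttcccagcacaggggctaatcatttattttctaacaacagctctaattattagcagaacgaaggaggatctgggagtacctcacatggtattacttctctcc
Il1rn, chr2:24345121-24345420, plus strand: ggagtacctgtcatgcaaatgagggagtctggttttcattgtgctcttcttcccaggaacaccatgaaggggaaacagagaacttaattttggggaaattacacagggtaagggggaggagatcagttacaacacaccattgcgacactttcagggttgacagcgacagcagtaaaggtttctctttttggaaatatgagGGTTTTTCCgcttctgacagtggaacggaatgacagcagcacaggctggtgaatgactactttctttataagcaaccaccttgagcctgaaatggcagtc

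The *Steap4* window held all 3 motifs, an NF-kB match starting at base -226 from the start of the gene, a STAT match at -116 and a C/EBP match at -87. *Apcs* had a STAT match at -244 and no other match. The *Il1rn* window printed had an NF-kB match at -50 and no other match. RefSeq gives *Il1rn* other start sites too, and the same match lay at 31 in an overlapping window, while the third window had none. The window of *Il6st* (chr13:112463820-112464119) held none of these letters, and *Hp* had no window in the set used. No match in the printed windows overlapped another. Over the 35 windows of 30 members, 7 windows (20.0%) held the STAT motif, against 8.3% of all 32851 windows. The NF-kB motif was in 14 member windows (40.0%), against 5.8% of all windows, and among the 11 members with it were *Nfkbia*, *Tnfaip3*, *Cxcl1*, *Cxcl2* and *Il6*. For C/EBP the count was 9 windows (25.7%), against 10.8% of all windows, and it included *Saa1*, *Saa2*, *Saa3*, *Saa4*, *Lcn2* and *Hpx*. Of the 11 members with the NF-kB motif, *Steap4* was called higher, *Il1rn* was called lower and the rest were not called. The list was chosen by name from these pathways, so the shares describe that choice and not the response to miR-709. Windows of 1 gene can overlap, and a match shows only that the letters are present.

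Of the 39 members measured, 3 were called higher with miR-709 (*Steap4*, *Apcs* and *Hp*), where 1.81% of all genes were called higher. Lower were *Il6st* and *Il1rn*, 2 members, where 1.47% of all genes were called lower. The other 34 were not called. At an unadjusted p under 0.05 the counts were 7 members higher, with 9.15% of all genes, and 2 members lower, with 5.83% of all genes. The arrays did not overlap for 8 members with all miR-709 arrays above, which held for 7.44% of all genes, and for 3 members with all miR-709 arrays below, which held for 4.91% of all genes. The median log2 fold change was 0.07 over the members and 0.01 over all genes. At the threshold the study used, an unadjusted p under 0.01 in its own test, 6 members were higher, with 2.81% of all genes, and 2 lower, with 1.90% of all genes. Members were brighter than most genes, with a median log2 level of 8.52 against 5.37 over all genes, and bright genes were called more often. Of 2011 genes with a mean of at least 9, 92 were called higher and 57 lower. The arrays did not overlap for 352 of these above and for 178 below. These counts describe the list, and the list as a whole was not tested.

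**Figure D1:**
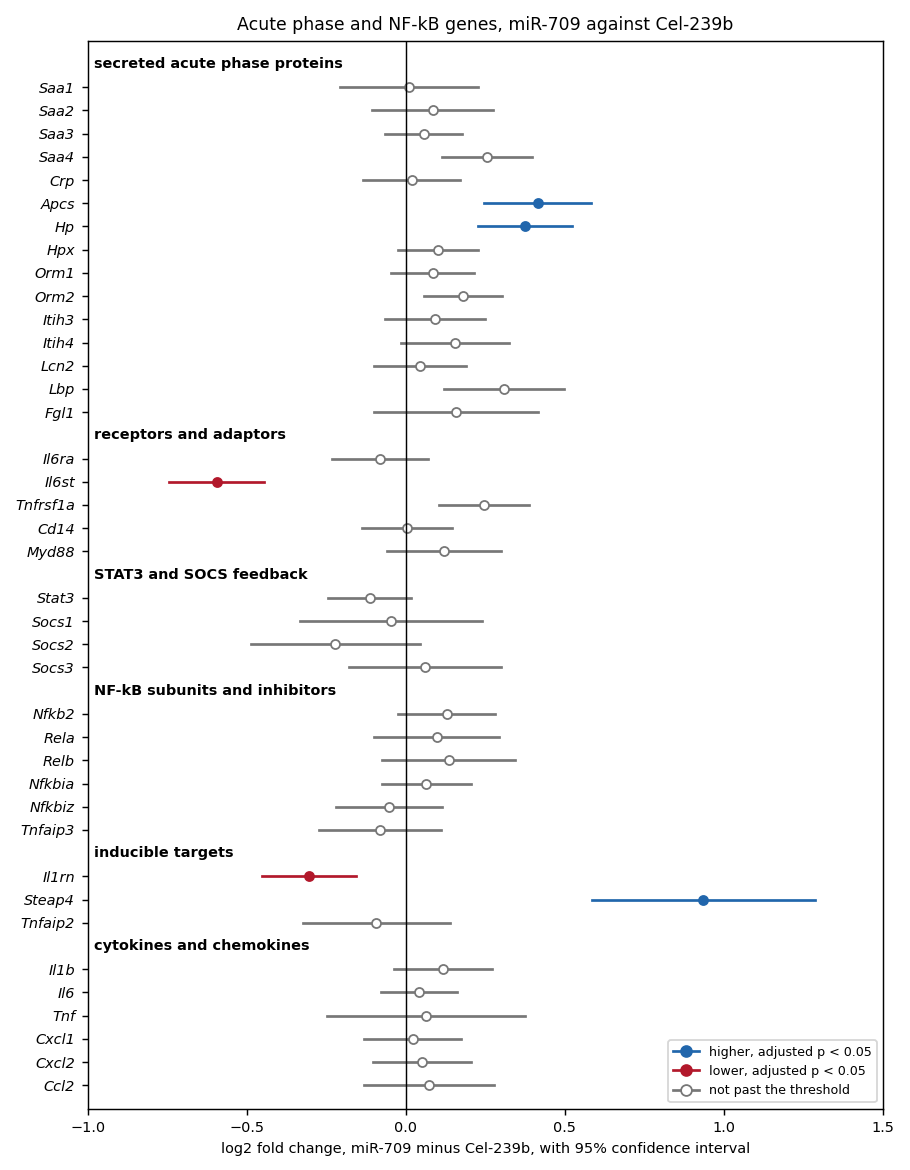
Log2 fold change (miR-709 minus Cel-239b, n = 4 and 3 arrays) of the 39 members measured, by role. Points are estimates and bars 95% confidence intervals from limma. *Steap4*, *Apcs* and *Hp* (blue) lie to the right of 0 and *Il6st* and *Il1rn* (red) to the left, and open points are genes not called.

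The secreted acute phase proteins are the plasma products of the response. All 15 were measured and 2 were called, both higher, with 1.81% of all genes called higher. Mean signals of 9 or more were found for 11 of the 15, and of all 2011 such genes 92 were called higher and 57 lower. *Apcs*, serum amyloid P, is the pentraxin that mice, unlike humans, use as a main acute phase reactant. It had log2 signals of 8.76, 8.61, 8.68 and 8.89 on miR-709 arrays A to D, against 8.26, 8.36 and 8.34 on Cel-239b arrays B to D. Every miR-709 array was above every Cel-239b array. The means were 8.74 ± 0.12 with miR-709 and 8.32 ± 0.05 with Cel-239b (SD, n = 4 and 3), a 1.33-fold higher level. Its log2 fold change was 0.42 (standard error 0.07, limma adjusted p = 0.0163). The call was lost without miR-709 replicate A (adjusted p = 0.0548), Cel-239b replicate B (0.0791), Cel-239b replicate C (0.0612) or Cel-239b replicate D (0.0517), and by the methods' t-test (0.109).

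*Hp*, haptoglobin, which binds free haemoglobin in plasma, had log2 signals of 12.72, 12.74, 12.53 and 12.63 on the miR-709 arrays. On the Cel-239b arrays its log2 signals were 12.28, 12.29 and 12.27. The groups were well apart, with replicates A and B of miR-709 highest. Haptoglobin mRNA was 1.30-fold higher in cells with miR-709, a log2 fold change of 0.38 (standard error 0.07, limma adjusted p = 0.0137). The call was lost when Cel-239b replicate B (adjusted p = 0.056) or C (0.0596) was left out, and by the methods' t-test (0.0731). *Hpx*, hemopexin, which binds free haem, did not overlap between the groups either, yet it was not called. Its log2 signals were 13.00, 12.99, 12.98 and 12.99 with miR-709, against 12.81, 12.94 and 12.92 with Cel-239b. The estimate was 0.10 on the log2 scale (95% interval -0.03 to 0.23, limma adjusted p = 0.453).

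*Lbp*, the plasma protein that hands bacterial lipopolysaccharide to CD14, had log2 signals of 10.76, 10.78, 10.51 and 10.53 with miR-709, against 10.26, 10.39 and 10.36 with Cel-239b. The arrays did not overlap, and the log2 fold change of 0.31 (standard error 0.08) missed the threshold (limma adjusted p = 0.0992). *Saa4*, the constitutive serum amyloid A, also stood apart on every array, at 6.35, 6.30, 6.40 and 6.42 with miR-709 and 6.03, 6.11 and 6.20 with Cel-239b. Its log2 fold change was 0.25 (standard error 0.06, limma adjusted p = 0.0707). When genes with a mean under 5 were left out, it passed the threshold (limma adjusted p = 0.0391).

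The inducible serum amyloids, which bind to high density lipoprotein in plasma, overlapped between the treatments. *Saa1* had log2 signals of 9.10, 9.19, 9.07 and 9.01 on the miR-709 arrays and 8.85, 9.13 and 9.27 on the Cel-239b arrays. Its log2 fold change of 0.01 had a 95% interval of -0.21 to 0.23. *Saa2* was measured at 11.64, 11.71, 11.77 and 11.71 with miR-709, against 11.68, 11.42 and 11.77 with Cel-239b (log2 fold change 0.08, interval -0.11 to 0.27). For *Saa3*, which macrophages and fat also make, the log2 fold change was 0.06 (interval -0.07 to 0.18). These close relatives can share probes.

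*Crp*, C-reactive protein, the pentraxin that rises strongly in humans, had log2 signals of 9.70, 9.77, 9.63 and 9.56 with miR-709. With Cel-239b they were 9.65, 9.71 and 9.58, inside the same range, and the 95% interval of the log2 fold change was -0.13 to 0.17. So the 2 pentraxins of the list differed in their values, *Apcs* apart on all arrays and *Crp* overlapping, but this difference between genes was not tested. *Lcn2*, lipocalin 2, which withholds iron from bacteria, had 13.00, 12.88, 12.88 and 12.87 with miR-709, against 12.77, 12.88 and 12.94 with Cel-239b. The groups overlapped for *Lcn2* (interval -0.10 to 0.19).

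The acid glycoproteins bind drugs and lipids in plasma. *Orm1* had log2 signals of 11.92, 11.89, 11.85 and 11.85 on the miR-709 arrays and 11.82, 11.85 and 11.71 on the Cel-239b arrays, with a log2 fold change of 0.08. *Orm2* did not overlap, at 8.87 to 8.98 with miR-709 against 8.72 to 8.77 with Cel-239b, and its log2 fold change was 0.18 (standard error 0.05, limma adjusted p = 0.142). Probes may be shared here as well. The inter-alpha-trypsin inhibitor heavy chains were not called. *Itih3* had 10.05, 10.06, 9.86 and 9.92 with miR-709, against 9.81, 9.94 and 9.89 with Cel-239b. *Itih4* had 11.43, 11.35, 11.20 and 11.20 with miR-709, against 11.08, 11.22 and 11.12 with Cel-239b. For both, replicates A and B of miR-709 were the highest arrays. *Fgl1*, a fibrinogen-like protein of hepatocytes, had 10.59, 10.72, 10.59 and 10.53 with miR-709, inside its spread with Cel-239b of 10.76, 10.35 and 10.24.

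Over the 15 secreted proteins, the log2 fold change was above 0 for all 15, and for 13 when the arrays were rescaled by cyclic loess, which put *Saa1* and *Crp* below 0. Without single arrays it was above 0 for 13 genes (replicate B of either group left out), 14 (replicate C or D of Cel-239b left out) or 15. The median was 0.10, or 0.06 after cyclic loess. Of all genes tested 54.6% were above 0, and of the 2011 genes with mean signals of 9 or more it was 61.5%, with a median of 0.04. Averaged over the 15 genes, the difference from the Cel-239b mean was 0.19, 0.19, 0.12 and 0.13 on miR-709 arrays A to D, against -0.03, 0.01 and 0.01 on Cel-239b arrays B to D. The miR-709 arrays were all above, with A and B above C and D.

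Hepatocyte markers were read on the same arrays, as a list that was not tested. Their mean difference was 0.25, 0.34, 0.17 and 0.18 on the miR-709 arrays, against -0.02, 0.01 and 0.00 on the Cel-239b arrays. Of 11 measured, 3 were called higher, *Tat*, *Cps1* and *Hnf4a* (log2 fold changes 0.61, 0.68 and 0.57), and 9 were above 0 (7 after cyclic loess). Over all genes, 1.81% were called higher and 54.6% were above 0. Mean signals of 9 or more were found for 8 of the 11. Of all 2011 such genes 92 were called higher, and 61.5% were above 0. *Alb*, *Ttr*, *Apoa1* and *Apoc3* had log2 fold changes of -0.03 to 0.06, and *Apob* had -0.18. *Cps1* was lost without miR-709 replicates B or C (limma adjusted p = 0.0525 and 0.0554) and without Cel-239b replicates B or D (0.0742 and 0.0544). By the methods' t-test only *Hnf4a* was called, with adjusted p of 0.157 for *Cps1* and 0.105 for *Tat*. Of 17 alternatives, 6 lost *Cps1* and 3 lost *Tat*. *Alb* had a mean log2 signal of 13.46 with miR-709 and 13.49 with Cel-239b. The summed linear signal of the marker list was 39854 to 42587 with miR-709 and 39655 to 40679 with Cel-239b. The part of these markers in the values of the secreted proteins was not tested.

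**Figure D2:**
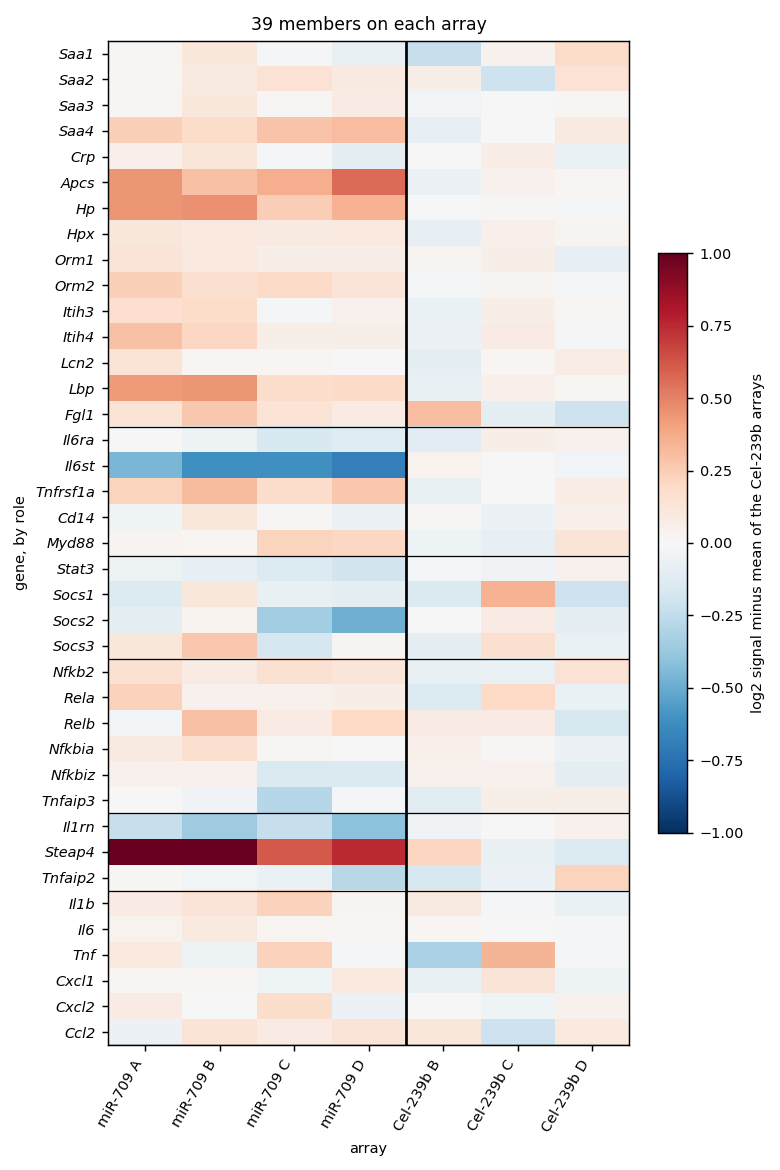
Log2 signal of each of the 39 members on each array minus the mean of its 3 Cel-239b arrays, by role from secreted proteins (top) to cytokines (bottom). Red is above and blue below that mean, and *Steap4* on miR-709 replicates A and B lies past the end of the scale. *Il6st* is blue and *Hp*, *Apcs* and *Steap4* are red on all 4 miR-709 arrays.

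The receptors set which signals reach the nucleus. Of 5 measured, *Il6st* was lower with miR-709 and the others were not called. *Il6st* encodes gp130, the chain through which IL-6, LIF, oncostatin M and related cytokines signal. Its log2 signals were 9.48, 9.32, 9.32 and 9.25 on the miR-709 arrays, against 9.97, 9.93 and 9.91 on the Cel-239b arrays. All miR-709 arrays were below all Cel-239b arrays, with little spread within either group. The means were 9.34 ± 0.10 and 9.94 ± 0.03 (SD, n = 4 and 3), so *Il6st* was 1.51-fold lower with miR-709. Its log2 fold change was -0.59 (standard error 0.07, limma adjusted p = 0.0014). *Il6st* was called in all 17 alternative analyses, with adjusted p of 6.14e-04 to 0.045 and log2 fold changes of -0.64 to -0.54.

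*Il6ra*, the ligand-binding partner of gp130 in the IL-6 receptor, had log2 signals of 8.34, 8.28, 8.18 and 8.21 with miR-709, against 8.23, 8.39 and 8.38 with Cel-239b. The groups overlapped, and the log2 fold change was -0.08 (95% interval -0.23 to 0.07). *Tnfrsf1a*, the main TNF receptor of hepatocytes, had log2 signals of 9.61, 9.70, 9.56 and 9.66 with miR-709, against 9.31, 9.39 and 9.46 with Cel-239b. It did not overlap, and its log2 fold change of 0.25 (standard error 0.06) missed the threshold over all genes (limma adjusted p = 0.0778). With genes of a mean under 5 left out it passed (limma adjusted p = 0.0441). *Cd14*, the lipopolysaccharide co-receptor, overlapped, at 7.85 to 8.02 with miR-709 and 7.85 to 7.96 with Cel-239b. *Myd88*, the adaptor of IL-1 and Toll-like receptors, was at 8.81 to 9.01 with miR-709 and 8.71 to 8.92 with Cel-239b.

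*Stat3*, the transcription factor downstream of gp130, had log2 signals of 9.76, 9.73, 9.68 and 9.63 on the miR-709 arrays, against 9.80, 9.78 and 9.86 on the Cel-239b arrays. The arrays did not overlap, but the gap was small. The log2 fold change was -0.11 (95% interval -0.24 to 0.02, limma adjusted p = 0.403). The SOCS genes are induced by cytokine receptors and inhibit them. *Socs3*, the feedback inhibitor of gp130, had 6.62, 6.78, 6.34 and 6.54 with miR-709, against 6.42, 6.67 and 6.44 with Cel-239b. For *Socs2*, which restrains growth hormone signalling, the signals were 7.52, 7.64, 7.26 and 7.12 with miR-709 and 7.61, 7.69 and 7.52 with Cel-239b. *Socs1* had 5.64 to 5.89 with miR-709 and 5.57 to 6.12 with Cel-239b. None of the 3 SOCS genes was called, and their 95% intervals reached from -0.49 (*Socs2*) to 0.30 (*Socs3*). A second, dimmer probe set differed by -0.04 for *Socs2* and by -0.01 for *Socs3* on the log2 scale.

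**Figure D3:**
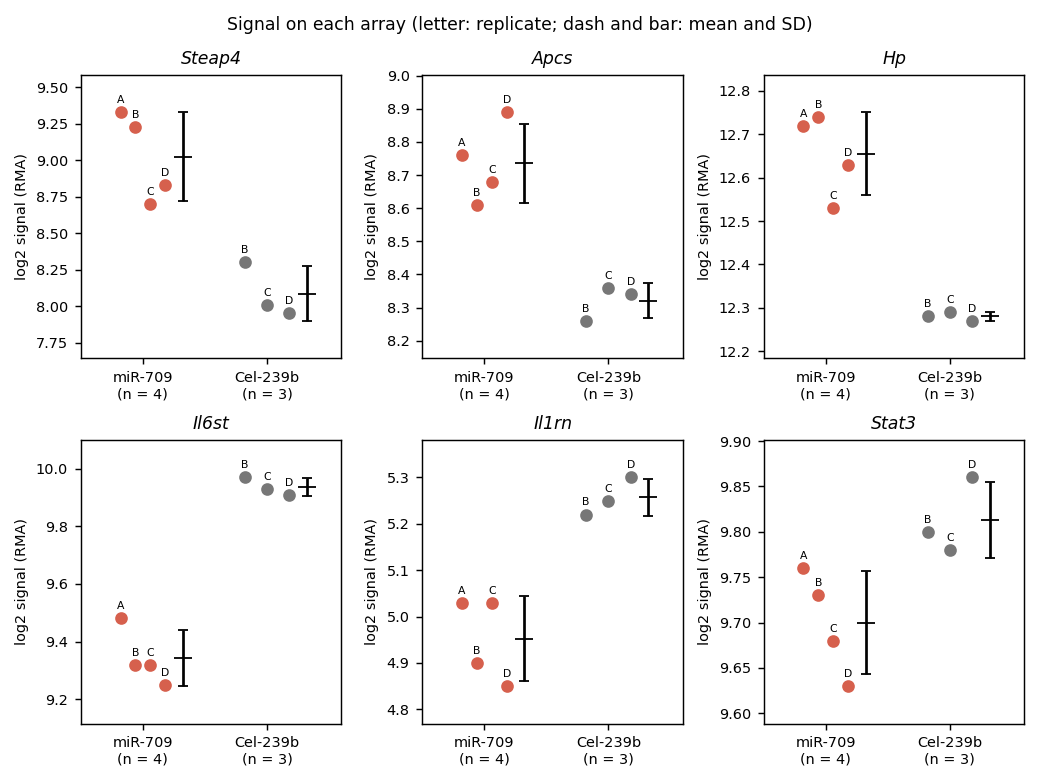
Log2 signal (RMA) on each array for the 5 members called and *Stat3*. Letters are replicates, red points miR-709 (n = 4), grey points Cel-239b (n = 3), and the bar to the right of each group is the mean with SD. The groups do not overlap in any of the 6 panels, and axes differ between panels and do not begin at 0.

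None of the 6 NF-kB subunits and inhibitors measured was called, by limma or by the methods' t-test, and none had an unadjusted p under 0.05 in limma. *Rela*, the p65 subunit, had log2 signals of 8.85, 8.67, 8.67 and 8.69 with miR-709, against 8.49, 8.82 and 8.56 with Cel-239b. *Nfkb2*, the precursor of the p52 subunit, was at 8.53 to 8.60 with miR-709 and 8.37 to 8.59 with Cel-239b, and *Relb*, its partner, at 6.36 to 6.68 with miR-709 and 6.23 to 6.47 with Cel-239b. The groups overlapped for all these subunits. *Nfkbia*, the inhibitor IkB alpha, is itself a rapid NF-kB target. It had 8.28, 8.35, 8.20 and 8.19 with miR-709, against 8.24, 8.20 and 8.13 with Cel-239b, and the 95% interval of its log2 fold change was -0.08 to 0.21. *Tnfaip3*, the deubiquitinating enzyme A20 that ends NF-kB signalling, had 7.65, 7.61, 7.36 and 7.63 with miR-709, against 7.53, 7.70 and 7.70 with Cel-239b. *Nfkbiz*, a nuclear IkB protein, was at 6.55 to 6.74 with miR-709 and 6.61 to 6.74 with Cel-239b. The log2 fold changes of the 6 genes ran from -0.08 to 0.14, with a median of 0.08.

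Among the inducible targets, *Steap4* had the largest change of the 39 members. This metalloreductase reduces iron and copper at membranes. Its log2 signals were 9.33, 9.23, 8.70 and 8.83 on the miR-709 arrays, against 8.30, 8.01 and 7.95 on the Cel-239b arrays. All miR-709 arrays were above all Cel-239b arrays, and within miR-709 replicates A and B were above C and D. The means were 9.02 ± 0.30 with miR-709 and 8.09 ± 0.19 with Cel-239b (SD, n = 4 and 3). *Steap4* was 1.91-fold higher (log2 fold change 0.94, standard error 0.16, limma adjusted p = 0.0112). Its call was lost without Cel-239b replicate C (adjusted p = 0.0812) or Cel-239b replicate D (0.0599), and by the methods' t-test (0.16).

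*Il1rn*, the antagonist that blocks the IL-1 receptor, is counted among acute phase proteins of hepatocytes. It had log2 signals of 5.03, 4.90, 5.03 and 4.85 with miR-709, against 5.22, 5.25 and 5.30 with Cel-239b. These are low signals, with a mean of 4.95 with miR-709 and 5.26 with Cel-239b, and the groups did not overlap. The log2 fold change of *Il1rn* was -0.30 (standard error 0.07, limma adjusted p = 0.0385). Leaving out any 1 of the 7 arrays took its adjusted p to between 0.0574 and 0.125, and it was 0.118 by the methods' t-test. *Tnfaip2*, a TNF-induced gene, overlapped, at 5.77 to 6.06 with miR-709 and 5.89 to 6.27 with Cel-239b.

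Cytokines and chemokines are made by hepatocytes and, more so, by Kupffer cells and other leukocytes. None of the 6 was called or reached an unadjusted p under 0.05 in limma, and the methods' t-test called none. *Il6*, *Il1b*, *Tnf* and *Cxcl2* had mean log2 signals under 5. *Il6* was at 2.54 to 2.62 with miR-709 and 2.50 to 2.54 with Cel-239b, close to the lowest deposited signals. *Il1b* was at 3.44 to 3.64 with miR-709 and 3.34 to 3.50 with Cel-239b. *Tnf* was at 3.98 to 4.26 with miR-709 and 3.71 to 4.37 with Cel-239b, and *Cxcl2* at 4.24 to 4.47 with miR-709 and 4.25 to 4.34 with Cel-239b. At such signals these probe sets say little about the transcripts. The neutrophil chemokine *Cxcl1* had 7.42, 7.42, 7.36 and 7.50 with miR-709, against 7.33, 7.53 and 7.35 with Cel-239b (log2 fold change 0.02, 95% interval -0.13 to 0.17). *Ccl2*, the monocyte chemokine, had 8.05, 8.25, 8.19 and 8.24 with miR-709, against 8.22, 7.90 and 8.21 with Cel-239b (interval -0.13 to 0.28). Both overlapped. The Kupffer cell and leukocyte markers summed to 1813 to 2059 in linear signal with miR-709 and 1645 to 1975 with Cel-239b. Most of this sum was *Cd68* alone, with a mean log2 signal of 10.67, so it says little about the other markers.

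**Figure D4:**
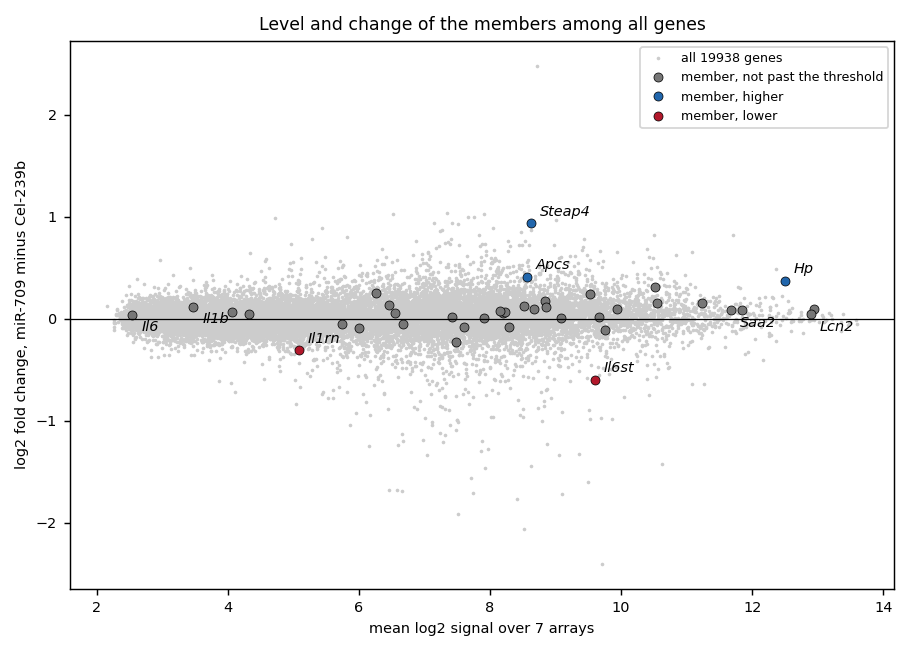
Mean log2 signal over 7 arrays (x axis) against log2 fold change, miR-709 minus Cel-239b (y axis), for all 19938 genes (light grey) and the 39 members (filled circles). Members called higher are blue and called lower red. *Steap4* (0.94) and *Il6st* (-0.59) have the largest fold changes of the members in each direction, and the cytokines *Il6* and *Il1b* lie at the dim end near 0.

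Further genes of these pathways were read from lists of 114 names, of which 103 were measured. With miR-709, 5 were called higher, where 1.81% of all genes were, and 3 lower, where 1.47% were. The median log2 fold change was 0.05, against 0.01 over all genes. These genes too were brighter, with a median log2 level of 7.62 against 5.37 over all genes. Of 19 other positive acute phase proteins, *Serpina3n* was called lower. None was called higher by limma or the methods' t-test. At an unadjusted p under 0.05 in limma 4 were higher, where 9.15% of all genes were. Other settings called some higher, *Cfb* and *Cp* with limma-trend, *Fga* with probe sets averaged, and *Cfb* with dim genes left out or without Cel-239b replicate D. *Serpina3n*, a protease inhibitor of the acute phase, had log2 signals of 11.72, 11.74, 11.74 and 11.77 with miR-709, against 12.08, 12.07 and 12.10 with Cel-239b. It was 1.27-fold lower (log2 fold change -0.34, standard error 0.05, limma adjusted p = 0.00673), while *Hp* and *Apcs* were higher. Of 11 negative acute phase proteins, which fall during the response, 9 had a log2 fold change above 0 (5 after cyclic loess). Of all genes 54.6% were above 0, and of those with a mean of at least 9 it was 61.5%. Among the 11, *Serpina6* was the gene called by limma, higher with miR-709. It encodes the corticosteroid carrier of plasma and had 7.04, 6.88, 6.69 and 6.73 with miR-709, against 6.30, 6.27 and 6.19 with Cel-239b (log2 fold change 0.58, standard error 0.09, limma adjusted p = 0.00697). The methods' t-test did not call it (adjusted p = 0.0922). *Igfbp3*, a carrier of insulin-like growth factors, had 7.48, 7.71, 6.99 and 7.28 with miR-709, against 7.97, 7.86 and 8.03 with Cel-239b. Its log2 fold change of -0.59 missed the threshold (limma adjusted p = 0.0699), and it was called lower after cyclic loess, with dim genes left out, or without miR-709 replicate B.

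Among 19 genes of IL-6 family receptors and JAK-STAT signalling, 2 were called, both higher. *Jak1*, the main kinase bound to gp130, had 10.11, 10.07, 10.06 and 10.14 with miR-709, against 9.87, 9.63 and 9.71 with Cel-239b. Its log2 fold change was 0.36 (standard error 0.07, limma adjusted p = 0.022), opposite in sign to that of *Il6st*. *Bcl3*, an IkB family protein that acts in the nucleus, had 8.68, 8.67, 8.59 and 8.64 with miR-709, against 8.40, 8.40 and 8.26 with Cel-239b (log2 fold change 0.29, limma adjusted p = 0.0313). Of 17 alternatives, 9 lost *Jak1* and 11 lost *Bcl3*, among them the methods' t-test (adjusted p = 0.102 and 0.0786) and the fixed replicate block (0.0981 and 0.152). *Jak1* was lost without any 1 array except Cel-239b replicate B (adjusted p = 0.0554 to 0.0894), and *Bcl3* without any 1 of the 7 (0.0574 to 0.0915) and after cyclic loess (0.0671).

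Of 20 genes of IL-1, TNF and Toll-like receptor signalling, 2 were called, both lower. *Irak2*, a kinase-like protein that carries the IL-1 signal to TRAF6, had 5.63, 5.39, 5.39 and 5.40 with miR-709, against 5.97, 5.92 and 5.92 with Cel-239b. It was 1.40-fold lower (log2 fold change -0.48, standard error 0.07, limma adjusted p = 0.00673), and the methods' t-test did not call it (adjusted p = 0.0702). *Tnfrsf1b*, the second TNF receptor, had 7.68, 7.61, 7.57 and 7.63 with miR-709, against 7.93, 8.06 and 8.05 with Cel-239b. It was 1.31-fold lower (log2 fold change -0.39, standard error 0.06, limma adjusted p = 0.0073), and *Tnfrsf1a* had the opposite sign without being called. Both genes called had non-overlapping arrays.

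Of 17 IkB kinases, other NF-kB factors and regulators, *Cyld* was called. This deubiquitinating enzyme restrains NF-kB, and it had 8.44, 8.63, 8.43 and 8.40 with miR-709, against 7.99, 7.96 and 7.96 with Cel-239b. *Cyld* was 1.42-fold higher (standard error of the log2 value 0.07, limma adjusted p = 0.00378). Of 17 other NF-kB target genes, *Icam1*, the leukocyte adhesion molecule, was called. It had 8.25, 8.29, 8.09 and 8.20 with miR-709, against 7.63, 7.71 and 7.78 with Cel-239b. *Icam1* was also 1.42-fold higher (standard error 0.07, limma adjusted p = 0.00396). The median over these 17 target genes was -0.01 on the log2 scale, with 8 above 0 and 9 below. *Cyld* and *Icam1* were called in all 17 alternative analyses.

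Interferon response genes split the miR-709 arrays. Averaged over 21 genes, the difference from the Cel-239b mean was -0.06, 0.00, 0.89 and 0.87 on miR-709 arrays A to D, against -0.16, -0.06 and 0.22 on Cel-239b arrays B to D. None of the 21 was called by limma or the methods' t-test. At an unadjusted p under 0.05 in limma 5 were higher, where 9.15% of all genes were. The summed linear signal was 7620 to 13323 with miR-709 and 6724 to 8902 with Cel-239b. Replicates C and D, high for these genes, were the lower miR-709 arrays for *Steap4*, *Hp* and *Lbp*. This did not hold for all members. *Apcs* was highest on replicate D, and *Saa4* and *Myd88* were highest on C and D. Without C and D, *Steap4* (log2 fold change 1.19, limma adjusted p = 0.0199), *Hp* (0.45, 0.0364) and *Il6st* (-0.54, 0.045) were still called. *Apcs* (0.365, limma adjusted p = 0.118) and *Il1rn* (-0.29, 0.166) were not called in that smaller comparison, nor were *Serpina3n* (0.0706), *Irak2* (0.117) and *Tnfrsf1b* (0.105). Averaged over all 39 members, the difference was 0.11, 0.12, 0.04 and 0.03 on miR-709 arrays A to D, against -0.03, 0.03 and 0.00 on Cel-239b arrays B to D.

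Other cell types were read in the same way. The 10 sinusoidal endothelial markers (summed linear signal 348 to 360 with miR-709, 331 to 353 with Cel-239b) and the 11 stellate cell markers (374 to 387 with miR-709, 381 to 414 with Cel-239b) held no gene called by limma or the methods' t-test. At an unadjusted p under 0.05 in limma, 2 endothelial markers were higher and 1 stellate marker was lower. Over all genes, 9.15% were higher and 5.83% lower at that threshold. Of 6 cholangiocyte markers measured, *Krt19* was called lower (log2 fold change -1.23, standard error 0.26, limma adjusted p = 0.0377). At an unadjusted p under 0.05 in limma, 3 were lower, with *Krt7* (-0.29) and *Sox9* (-0.30) beside it. Over all genes, 1.47% were called lower and 5.83% were lower at the unadjusted threshold. The list, in which *Krt19* was the brightest gene, summed to 484 to 798 with miR-709 and 1037 to 1186 with Cel-239b. *Krt19* was lost without any 1 array except miR-709 replicate A (adjusted p = 0.053 to 0.158). The part of these markers and of the interferon response genes in the members' values was not tested.

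**Figure D5:**
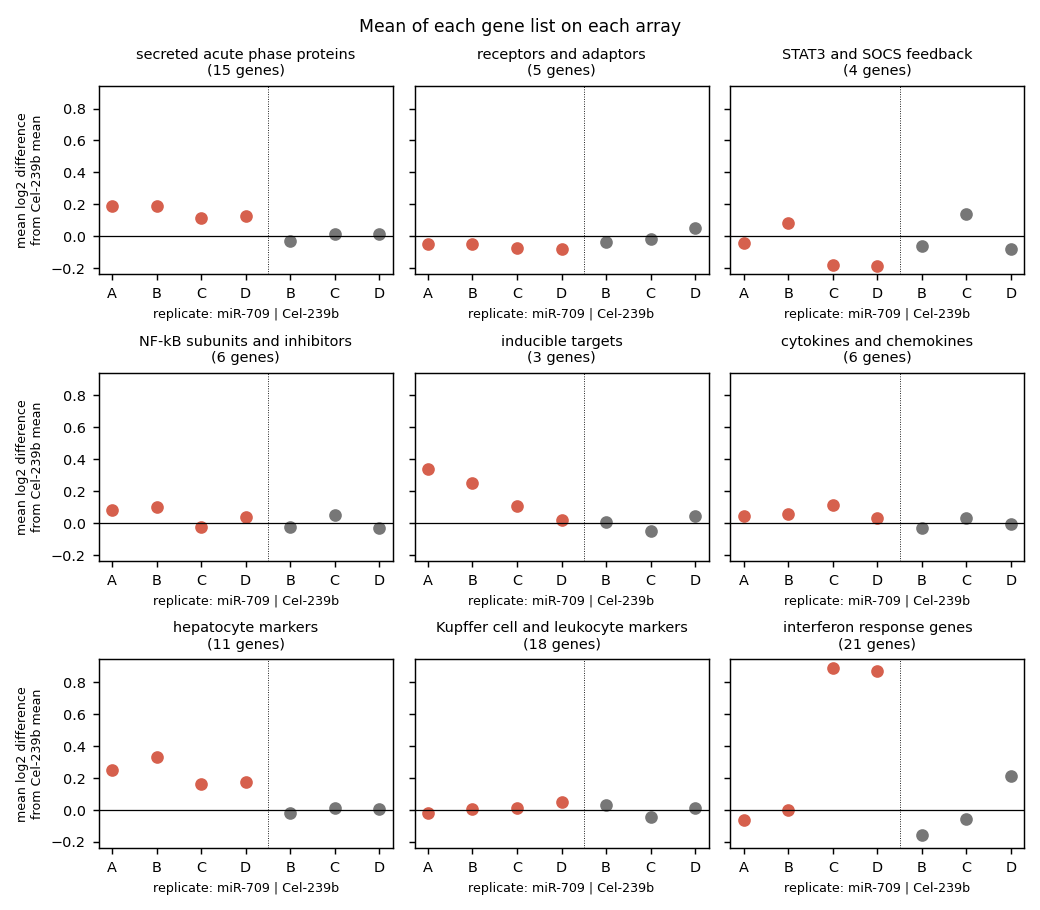
Mean over the genes of each list of the log2 signal minus the gene's Cel-239b mean, on each array (miR-709 A to D in red, Cel-239b B to D in grey). The secreted proteins and the hepatocyte markers lie above 0 on all 4 miR-709 arrays, the NF-kB subunits and inhibitors lie between -0.03 and 0.10, and the interferon response genes are high on miR-709 replicates C and D.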

How the data were processed

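RNA from mouse hepatocytes was hybridised to 7 Affymetrix Mouse Gene 1.0 ST arrays, 4 with miR-709 and 3 with Cel-239b. The authors deposited log2 signals per probe set, for which the labels name Partek and RMA, a method that corrects background, normalizes quantiles and summarises probes. Versions are not given in the sources used here. Raw scans were not analysed here, so background correction and probe summary could not be varied. Of 28853 probe sets, 21789 had 1 gene symbol, 1621 had several and 5443 had none. Symbols were matched by gene number for 21698. Where a gene had more than 1 (999 genes), the brightest probe set stood for it, which gave 19938 genes. No pair of arrays held identical values.

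Groups were compared with limma (version 3.58.1, R version 4.3.3) on log2 values, 2-sided, with no covariate, and p-values were adjusted by Benjamini-Hochberg over all genes. The median residual SD was 0.102. On simulated data of 19938 genes for this comparison, limma recovered 91 of 100 genes changed by 0.75 on the log2 scale and 98 of 100 changed by 1.5, with 7 false among 196 calls. Simulated noise was independent between genes and arrays, so patterns shared by many genes on an array were not included. The count of false calls does not cover such patterns. Changes under 0.75 were not simulated, and of the members only *Steap4* (0.94) was above that. Recovery at the sizes seen for the other members is therefore not known. The study's 1-way ANOVA on log2 signals, the same as a t-test here, is named the methods' t-test. The study took an unadjusted p under 0.01 from it, while calls named here use Benjamini-Hochberg adjustment at 0.05.

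Members, lists and motifs were chosen with earlier results of these data known. Every member could be named, with all arrays given for members called, for *Il1rn*, *Steap4* and *Hp*, and for those with a mean of 9 or more on the log2 scale. Other members' arrays were given where they helped. From pathway lists, called genes were named, at most 4 per direction. *Tat*, *Cps1*, *Hnf4a* and *Krt19* were named as called marker genes and other markers as defining genes. *Igfbp3*, *Cfb*, *Cp* and *Fga* were named after their values were seen.

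Alternatives numbered 17. They were the methods' t-test, limma-trend, array weights, probe sets averaged per gene, genes with a mean under 5 left out, median centring, cyclic loess, a fixed or random block for the replicate letter, each of the 7 arrays left out, and both miR-709 replicates C and D left out. Promoter windows are those of RefSeq, GRCm38.p6, and 30 members had at least 1.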

Additional observations from a re-analysis of the deposited data

Results flagged for a closer look

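Within the 4 miR-709 arrays, 1 array lay far from the other 3 for 3 of the 39 members. *Lcn2* was at 13.00 on replicate A, where the others began at 12.87, a gap of 0.923 of the whole range. *Rela* was at 8.85 on replicate A, with the lowest array at 8.67 (gap 0.889 of the range). *Tnfaip3* was at 7.36 on replicate C, with the highest array at 7.65 (gap 0.862). Each gap was above Dixon's critical value for 4 samples. Chance alone marks about 1 in 20 groups in this way, and none of the 3 genes was called.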

How the results depend on the processing

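No log2 fold change of a called gene named here turned in sign under the 17 alternatives. *Il6st* was called in 17 of 17, *Steap4* in 14, *Hp* in 13, *Apcs* in 10 and *Il1rn* in 6. Lower members, 2 of 39, numbered 1 with the methods' t-test, array weights, the fixed replicate block, or without miR-709 replicates C and D, and 1 without any single array. Higher members, 3 of 39, numbered 0 with the methods' t-test, 1 with the fixed replicate block, 5 with genes of a mean under 5 left out, and 0 to 3 without single arrays (0 without Cel-239b replicate C). Over all genes, the 293 lower numbered 113 with the methods' t-test, 92 without C and D, and 181 to 244 without single arrays. The 361 higher numbered 113, 76 and 180 to 294 in the same order, and 180 with the fixed replicate block. Cyclic loess gave 333 lower and 304 higher. Whether replicate letters pair the samples cannot be told from these values, all near 0. Deviations of same-lettered arrays correlated at 0.0189 (B), 0.0167 (C) and 0.0462 (D), against -0.0558 to 0.0198 for unlike letters. Only miR-709 replicate B did so better with another letter, Cel-239b replicate D (0.0198). Under the fixed replicate block *Il6st* and *Steap4* were called and *Hp*, *Apcs* and *Il1rn* were not, and the random replicate block (correlation 0.00316) kept all 5. The causes of these shifts were not tested. Dim members (*Il6*, *Il1b*, *Tnf*, *Cxcl2*) are limited by their low signal.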
